A study of Rattus norvegicus with 16 samples.

Results

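The early response to a change of growth factor was read on the 4 arrays labelled PDGF at 12 h, out of 16 two-colour arrays in all. Each carried RNA from rat neural stem and progenitor cells that had received platelet-derived growth factor AA (PDGF-AA, 10 ng/ml, added daily) for 12 h. The other dye carried RNA from cells of the same kind grown with fibroblast growth factor 2 (FGF-2, 10 ng/ml), the common reference of all arrays. The cells were neocortical, from Sprague-Dawley rat embryos of day 14.5, and grew as a monolayer on polyornithine and fibronectin in N2 medium. The remaining 12 arrays held cells without growth factor for 12 h, cells without growth factor for 6 d, and cells with PDGF-AA for 6 d, with 4 arrays each. No group carried an engineered allele. The design text sets PDGF against FGF-2 as alternative conditions, while the protocol says that PDGF-AA was added to stem cell cultures. Neither states whether FGF-2 was washed out first.

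PDGF-AA is a dimeric ligand that activates the receptor PDGFRα, a tyrosine kinase that marks glial progenitors and signals through the ERK and phosphatidylinositol 3-kinase pathways. FGF-2 signals through FGF receptors into much the same pathways and keeps cortical progenitors dividing in culture. In a dividing cell, genes of DNA replication are transcribed around the G1/S transition, and genes of mitosis later, in G2 and M. The promoters of the mitotic genes often hold a CCAAT box, bound by NF-Y, and a cell cycle genes homology region (CHR), bound by MuvB complexes, whereas E2F factors act on many replication genes.

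Promoters of some of the genes that fell furthest after the switch are shown because they hold these elements close together. Each line gives 150 rat bases 5′ to 3′ ending just before the annotated start, from RefSeq on build GRCr8, matched to the array by gene symbol. Capitals mark CHR letters (TTTGAA or TTCGAA) and CCAAT, on either strand. The windows are chr10:84473094-84473243 on the minus strand for Top2a, chr20:19265143-19265292 on the plus strand for Cdk1, chr13:53625434-53625583 on the plus strand for Aspm, chr5:137255800-137255949 on the minus strand for Cdc20, and chr17:13727520-13727669 on the minus strand for Cks2. The window of Cdkn2c, chr5:129644892-129645041 on the minus strand, is added as one from a gene that fell as far and holds neither motif here.
Top2a: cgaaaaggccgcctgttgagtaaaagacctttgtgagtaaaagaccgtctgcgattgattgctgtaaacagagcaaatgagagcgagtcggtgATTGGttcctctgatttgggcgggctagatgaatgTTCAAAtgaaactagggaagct
Cdk1: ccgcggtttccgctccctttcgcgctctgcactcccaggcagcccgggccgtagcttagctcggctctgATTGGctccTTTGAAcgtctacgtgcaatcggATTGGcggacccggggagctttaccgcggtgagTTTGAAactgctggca
Aspm: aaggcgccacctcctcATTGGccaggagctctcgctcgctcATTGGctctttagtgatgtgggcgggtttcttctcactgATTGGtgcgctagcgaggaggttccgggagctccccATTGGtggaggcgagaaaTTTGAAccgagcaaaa
Cdc20: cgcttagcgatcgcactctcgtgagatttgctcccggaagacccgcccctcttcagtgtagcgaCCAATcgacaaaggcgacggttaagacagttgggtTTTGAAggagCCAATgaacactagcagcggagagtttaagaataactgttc
Cks2: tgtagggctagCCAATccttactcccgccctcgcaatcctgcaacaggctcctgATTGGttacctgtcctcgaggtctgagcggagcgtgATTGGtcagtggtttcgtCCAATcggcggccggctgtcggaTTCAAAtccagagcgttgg
Cdkn2c: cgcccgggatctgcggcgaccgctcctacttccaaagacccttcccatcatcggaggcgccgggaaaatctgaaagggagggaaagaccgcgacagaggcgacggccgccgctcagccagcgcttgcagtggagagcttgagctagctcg

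Among the 20 genes that fell furthest, 16 had a promoter entry, 12 of these held CCAAT in the window of 150 bases, and 9 held both CCAAT and CHR letters. The 9 were Top2a, Tacc3, Aspm, Hmgb2, Cdk1, Cks2, Kif23, Ncapd2 and Cdc20. Among the 20 that rose furthest, 15 had an entry, 1 of them (Sat1) held CHR letters, and 0 held both. The share of all promoters that hold both in this window was not counted.

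The 4 arrays agreed only in part. Arrays 1 and 4 carried the PDGF-AA sample in Cy5 and arrays 2 and 3 in Cy3, and the dye effect passed the threshold in 39.1% of all measured units. A unit here is a named gene, averaged over its spots, or a spot without a single gene symbol, and 12559 units were tested, 6241 of them named genes. Across units, arrays of the same dye correlated at 0.477 and 0.529, and arrays of opposite dye at -0.468 to 0.068. With the fitted dye effect removed, arrays 1 and 2 correlated at 0.519, while arrays 3 and 4 correlated at -0.0908. The labels state at least 2 RNA preparations but not which arrays share one, so p-values measure the spread between these hybridisations, which may be partly technical. No array compared FGF-2 RNA with itself, so the spread between FGF-2 cultures was not measured on its own.

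All values below are log2 ratios of PDGF-AA over FGF-2, centred on each array's median, with the dye effect fitted. The base of the deposited logarithm is not stated and was taken as 2. The direction is likely, not stated: it rests on replication genes lying below 0 after withdrawal of growth factor. The falls of replication genes given here are therefore no support for it. With the ratio turned, every rise and fall would be exchanged. Fitted values carry the standard error (SE) of a limma fit over all 16 arrays, with n = 4 arrays for each group. Adjusted p denotes limma p-values corrected by Benjamini-Hochberg over all units, with a threshold of 0.05, and "rose" and "fell" are used only for genes past it. Rat RNA was read on mouse cDNA, and the ratios give no level of a gene, so the cell type named in the labels could not be checked against its markers.

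After 12 h of PDGF-AA, 378 units (3.01% of those tested) differed from FGF-2. Of these, 295 (2.35%) were lower and 83 (0.661%) were higher. Among named genes, 215 fell (3.44%) and 70 rose (1.12%). At an unadjusted p under 0.05, 1656 of the 12559 units differed. The median change was -0.64 among units that fell and 0.54 among units that rose, against -0.000475 over all units, and 32 fell and 9 rose by more than 2-fold. All 4 arrays lay below 0 for 271 of the 295 lower units and above 0 for 78 of the 83 higher ones. Without array 1 the count was 76 (73 lower and 3 higher), without array 2 it was 113 (106 lower and 7 higher), and without array 4 it was 247 (209 lower and 38 higher). A total of 53 genes that fell and 2 that rose, Serinc2 and Mdk, were called whichever array was left out. Among called units, 172 (45.5%) also had a dye effect past the threshold, and without the dye term 156 units were called (135 lower and 21 higher).

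**Figure D1:**
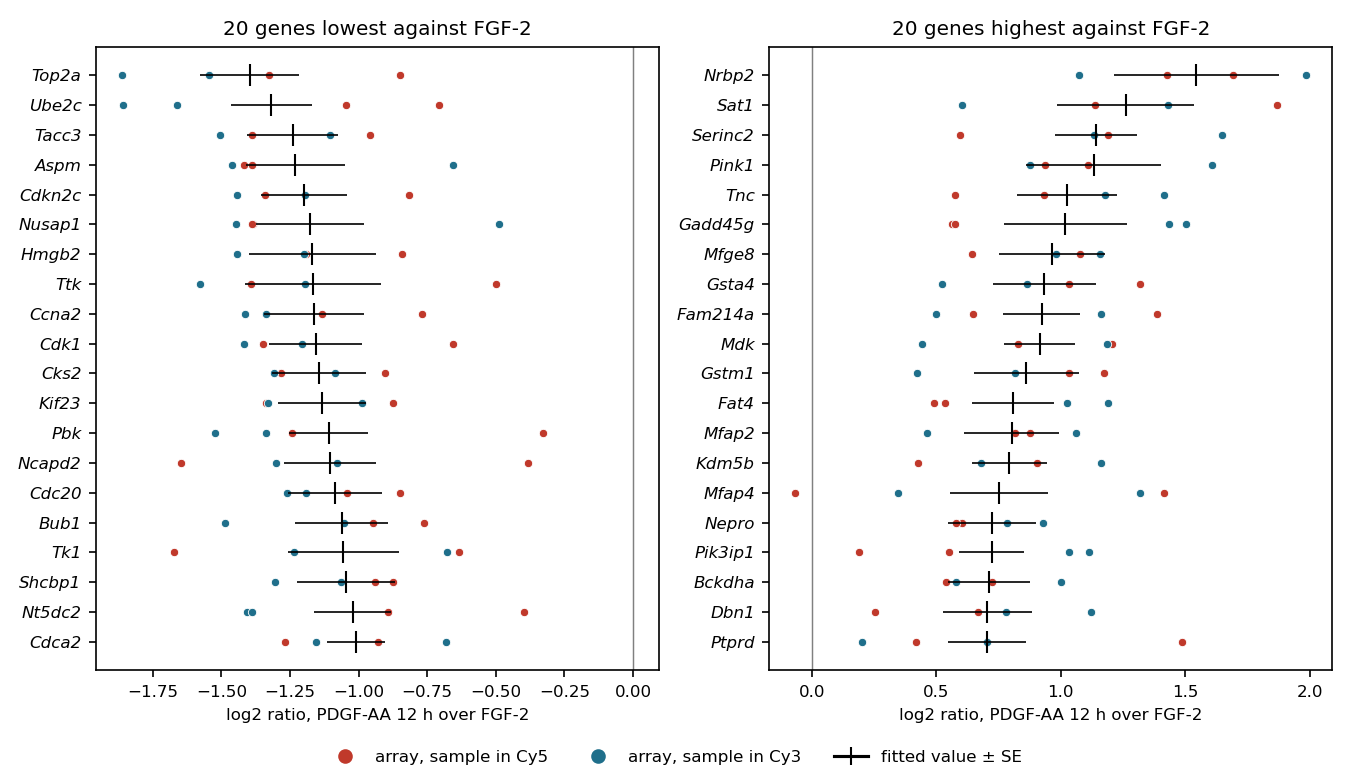
Log2 ratio of PDGF-AA 12 h over FGF-2 on each of the 4 arrays (points, coloured by the dye of the sample) for the 20 named genes that fell furthest (left) and the 20 that rose furthest (right), with the fitted value and its SE (black). All points on the left lie below 0, with Top2a lowest at -1.40, and on the right 1 point lies below 0, array 4 of Mfap4 at -0.07.

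Genes of the cell cycle made up a large share of the falls. Of 170 measured genes on the 6 cell cycle lists, 80 fell and 1 rose, and their median was -0.51, against 0.00283 over all named genes. The median of these 170 genes was -0.61, -0.63, -0.48 and -0.40 on arrays 1 to 4, so it lay below 0 on each. They accounted for 80 of the 215 named genes that fell, and 112 of the 215 were on no list. The number of cell cycle genes that fell was 36 without array 1, 42 without array 2, 73 without array 3 and 61 without array 4. In bulk RNA, fewer dividing cells and less of these transcripts per dividing cell cannot be told apart.

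Genes of G2 and mitosis stood lowest among the lists. Of 31 cyclins, kinases, checkpoint and anaphase genes, 20 fell, 0 rose and 30 lay below 0, with a median of -0.83. Ube2c, the ubiquitin-conjugating enzyme of the anaphase-promoting complex, read -1.04, -1.66, -1.86 and -0.71 on arrays 1 to 4. Its fitted change was -1.32 ± 0.15 (SE, n = 4), 2.49-fold lower, with an adjusted p of 0.00033. Both Cy3 arrays were lower than both Cy5 arrays, and all 4 were below 0. Cdk1, the kinase that drives entry into mitosis, read -1.35, -1.42, -1.20 and -0.66, a fitted -1.16 ± 0.17 (adjusted p = 0.00175). Its partner Ccna2 (cyclin A2) read -1.13, -1.41, -1.34 and -0.77, with a fitted -1.16 ± 0.18 (adjusted p = 0.00228). Array 4 gave the smallest fall for Ube2c, Cdk1 and Ccna2 alike.

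Others of the group fell by similar amounts. Cdc20, which activates the anaphase-promoting complex, fell by 1.09, Cks2, a small subunit bound to cyclin-dependent kinases, fell by 1.14, and the checkpoint kinase Bub1 fell by 1.06. The mitotic kinases Pbk, Melk, Aurka and Nek2 changed by -1.11, -0.98, -0.89 and -0.81, and Ccnf (cyclin F) by -0.83. These 8 genes, with Ube2c, Cdk1 and Ccna2, stayed called whichever array was left out. The value of Ccnf averages spots at -1.24 and -0.41. The checkpoint kinase Ttk fell by 1.17 but lost its call without array 1, 2 or 3, where its adjusted p reached 0.137. Ccnb2 (cyclin B2) fell by 0.85 and lost its call without array 1 or 2 (adjusted p up to 0.108). Plk1, a kinase with many roles in mitosis, read -1.71, -0.65, 0.14 and -1.35, and its -0.89 ± 0.30 did not pass the test (adjusted p = 0.138). Bub3 had the highest value of the group, 0.15. Without array 1 the group held 11 falls, and without array 2 it held 14.

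Genes of the spindle, the mitotic chromosome and cytokinesis also fell. Of 48 measured, 33 fell, 0 rose and 47 lay below 0, with a median of -0.73. Top2a, the topoisomerase that untangles sister chromatids, read -1.32, -1.86, -1.55 and -0.85 on arrays 1 to 4. Its fitted change of -1.40 ± 0.18, 2.63-fold lower, was the largest fall of any named gene in the direction taken here (adjusted p = 0.000912). Tacc3, a spindle microtubule protein, fell by 1.24 and read between -1.51 and -0.96. Aspm, a spindle pole protein whose loss causes microcephaly, read -1.42, -1.46, -0.66 and -1.39, a fitted -1.23 ± 0.18. Nusap1, which binds spindle microtubules, read -1.38, -1.45, -0.49 and -1.39, a fitted -1.18 ± 0.20. For Aspm and Nusap1 array 3 stood apart from 3 arrays that lay close together.

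Further genes of the list fell. The kinesin Kif23, needed for cytokinesis, fell by 1.13, the condensin subunit Ncapd2 fell by 1.10, and Cdca2, which brings a phosphatase to chromatin at mitotic exit, fell by 1.01. The chromosomal passenger subunits Incenp and Birc5 changed by -0.97 and -0.93, the kinetochore protein Ndc80 by -0.99 and the midzone protein Prc1 by -0.92. These 7 genes stayed called whichever array was left out. The value of Prc1 averages spots at -1.31, -1.28, -1.16 and 0.08. Hmgb2, a DNA-bending chromatin protein, fell by 1.17 and lost its call without array 1 or 2 (adjusted p up to 0.107). Mki67, which encodes the proliferation antigen Ki-67, fell by 0.99 and lost its call without array 2 only (adjusted p = 0.0502). Among genes not past the test were the kinesin Kif11 at -0.69 and the kinetochore gene Spc25 at -0.85. The count of falls was 18 without array 1 and 19 without array 2.

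The motifs shown in the promoters above were also counted over whole lists. Searched on both strands of the 250 bases before the start, CHR letters were present in 28 of 46 promoters of G2/M and spindle genes that fell (60.9%). They were present in 4 of 18 promoters of replication genes that fell (22.2%), in 6 of 59 promoters of genes that rose (10.2%), and in 610 of 5013 promoters of all named genes tested (12.2%). CCAAT was present in 69.6%, 77.8%, 30.5% and 35.9% of the same groups, in that order. An E2F core was present in 39.1%, 38.9%, 13.6% and 32%. The core was searched as TTGGCG, as the related form TTCGCG, and as a further form spelled TTCCCG. Over all 27457 rat promoters the shares were 17.3% for CHR letters, 34.3% for CCAAT and 17.6% for an E2F core. The motifs can overlap, since a reversed CCAAT box followed by CG also spells TTGGCG. Members of the same lists that did not fall were not counted. The shares therefore cannot tell genes that fell from the rest of their lists. These are counts of letters and describe no binding.

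**Figure D2:**
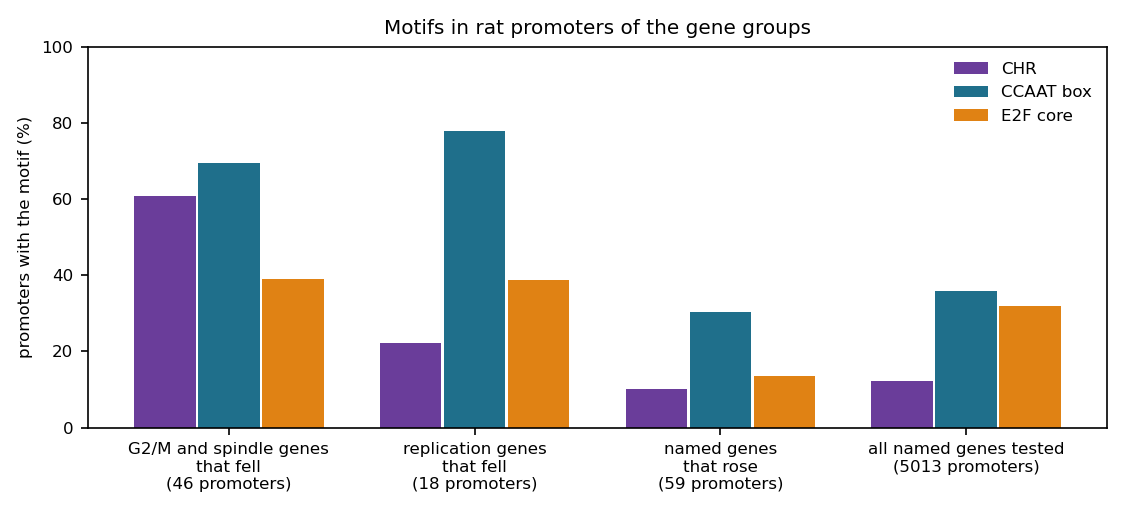
Percentage of rat promoters (250 bases before the start, both strands) that hold CHR letters, a CCAAT box or an E2F core, for 3 groups of genes that changed and for all named genes tested. The CHR bar stands at 60.9% in G2/M and spindle genes that fell and at 12.2% in all named genes, whereas the CCAAT bar is high in both groups of genes that fell.

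Replication genes also fell, with medians closer to 0. Of 20 genes of origin licensing and firing, 5 fell and 0 rose, with a median of -0.41, and of 31 genes of the replication fork, nucleotide supply and S phase chromatin, 15 fell and 0 rose, with a median of -0.49. Tk1, thymidine kinase, read -1.67, -1.24, -0.68 and -0.63, a fitted -1.05 ± 0.20, and lost its call without array 1 or 2 (adjusted p up to 0.106). Pclaf, a partner of the sliding clamp PCNA, read -0.67, -1.22, -1.33 and -0.54, a fitted -0.94 ± 0.14 (adjusted p = 0.002). Pclaf was lower on the Cy3 arrays and Tk1 lowest on array 1, with all arrays below 0 for both. The ribonucleotide reductase subunits Rrm2 and Rrm1 changed by -0.91 ± 0.22 and -0.81 ± 0.19. Both lost their calls without array 1, 2 or 4 (adjusted p up to 0.285 for Rrm2 and 0.249 for Rrm1). In the fork group Pclaf, the polymerase subunit Pold2 (-0.86), the nucleotide-cleaning enzyme Dctpp1 (-0.86) and the histone chaperone Asf1b (-0.59) stayed called whichever array was left out.

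Among subunits of the MCM helicase, which opens DNA at origins, 1 passed the test. Mcm3 fell by 0.81 with readings of -1.26, -0.83, -0.35 and -0.78, but the loss of any 1 array ended its call (adjusted p up to 0.312). Mcm6 at -0.49 ± 0.23, Mcm2 at -0.44 ± 0.18, Mcm5 at -0.42 ± 0.22 and Mcm7 at -0.29 ± 0.09 did not pass the test. The origin genes past it were Gmnn, an inhibitor of re-licensing, at -0.87, Cdc45 at -0.68, Gins4 at -0.67 and Dbf4 at -0.66, besides Mcm3. Each of the 5 lost its call when at least 1 array was left out: Gmnn without array 1, 2 or 4, Cdc45 without array 1, 2 or 3, Gins4 without array 1, and Dbf4 without array 2 or 4. Their adjusted p then reached 0.101, 0.11, 0.0559 and 0.0639. The origin recognition genes Orc1 and Orc2 and the licensing factor Cdc6 read -0.07, 0.03 and 0.02.

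G1 and G1/S regulators split by gene. Of 20 measured, 3 fell and 1 rose, and the median was -0.03. Cdkn2c, an inhibitor of the cyclin D kinases (p18), read -1.34, -1.44, -1.20 and -0.82, a fitted -1.20 ± 0.16 (adjusted p = 0.000912). Rbl1 (p107), a pocket protein that holds E2F in check, read -0.45, -1.15, -1.19 and -0.16, a fitted -0.74 ± 0.11 (adjusted p = 0.00166). Both stayed called whichever array was left out, although Rbl1 differed more between dyes than between arrays of the same dye. E2f7, a repressive E2F, fell by 0.52 and lost its call without array 1, 2 or 4 (adjusted p up to 0.241).

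Cdk4, the kinase that cyclin D activates, was the gene of these lists that rose, with readings of 0.54, 0.34, 0.41 and 0.23 and a fitted 0.38 ± 0.10 (adjusted p = 0.0472). Its call ended without any 1 of the arrays (adjusted p up to 0.324). Ccnd2 (cyclin D2) read -0.30, 0.13, -0.02 and -0.51, a fitted -0.17 ± 0.09 (adjusted p = 0.402), and lay on both sides of 0. Ccne1 (cyclin E1) at -0.44 ± 0.15 and the kinase inhibitor Cdkn1b (p27) at 0.01 ± 0.12 did not pass the test. Of 20 DNA repair genes, 4 fell, namely Exo1, Rad54l, Trip13 and Fancd2 at -0.55 to -0.49, and the list median was -0.17. Each of these 4 lost its call when array 1 or array 2 was left out, with adjusted p up to 0.237, 0.108, 0.236 and 0.106 over the losses of 1 array.

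**Figure D3:**
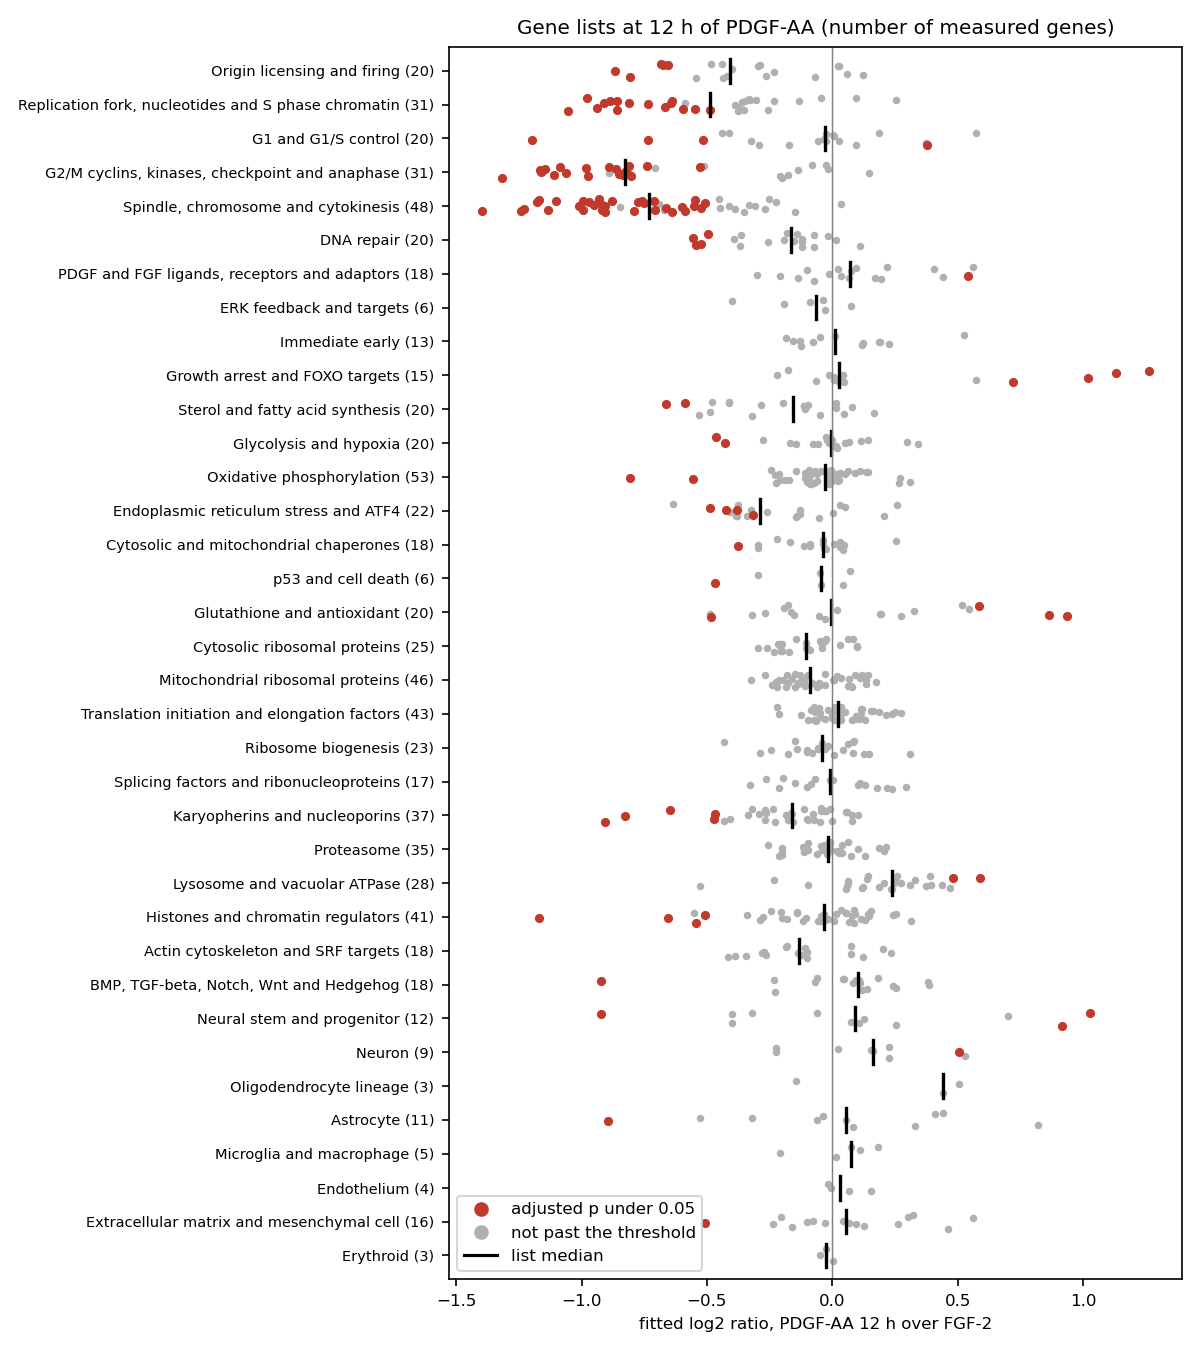
Fitted log2 ratio of PDGF-AA 12 h over FGF-2 for every measured member of 36 gene lists (points, red where the adjusted p is under 0.05), with the list median as a bar and the number of measured genes in brackets. The medians of the G2/M list (-0.83) and the spindle list (-0.73) lie furthest below 0, and most other medians lie near 0.

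Growth factor signalling genes themselves showed few changes. Of 18 PDGF and FGF ligands, receptors and adaptors, 1 rose and 0 fell, and the median was 0.07. The riser was Pik3r1, the regulatory subunit of phosphatidylinositol 3-kinase, with readings of 0.54, 0.85, 0.35 and 0.44 and a fitted 0.54 ± 0.14 (adjusted p = 0.0375). It lost its call without array 1, 2 or 4 (adjusted p up to 0.243). Pdgfra, the receptor for PDGF-AA, read 0.38, 0.91, 0.23 and 0.23, a fitted 0.44 ± 0.36 (adjusted p = 0.744). Pdgfrb, which binds PDGF-BB but not PDGF-AA, read 0.32, 0.95, 0.46 and 0.51, a fitted 0.56 ± 0.15 (adjusted p = 0.0573). Both receptors lay above 0 on all 4 arrays without passing the test. Pdgfa, the gene of the ligand chain, had 0.41 ± 0.15 and Fgfr1 had -0.30 ± 0.34, neither past the test.

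Feedback and target genes of the ERK pathway, which report its activity, did not pass the test at 12 h. Of 6 measured, 0 rose and 0 fell in limma, with a median of -0.06, and of 13 immediate early genes 0 rose and 0 fell, with a median of 0.01. At an unadjusted p under 0.05, 1 of the 6 and 1 of the 13 differed, against 1656 of all 12559 units. Spry4, a feedback inhibitor of receptor tyrosine kinases, read -0.06, 0.60, 0.01 and -0.67, a fitted -0.03 ± 0.34. Egr1, a transcription factor induced by ERK, read 0.72, -0.04, -0.76 and 0.13, a fitted 0.01 ± 0.23. Both scattered around 0. Etv5, an ETS factor downstream of FGF signalling, lay below 0 on all 4 arrays with -0.40 ± 0.15 (adjusted p = 0.205). Fos, Jun and Myc had 0.19 ± 0.15, -0.08 ± 0.13 and 0.19 ± 0.09.

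The genes that rose were fewer and mostly outside the lists, with 14 of the 70 named ones on any list. Nrbp2, a pseudokinase expressed in neural progenitors, had the largest rise, with readings of 1.69, 1.99, 1.07 and 1.43 and a fitted 1.55 ± 0.33 (adjusted p = 0.0156). It lost its call without array 1, 2 or 4 (adjusted p up to 0.165). Serinc2, of a family of membrane proteins named for serine incorporation, read 1.19, 1.65, 1.14 and 0.59, a fitted 1.14 ± 0.17 (adjusted p = 0.00166). Mdk, the secreted growth factor midkine, read 1.21, 1.19, 0.44 and 0.83, a fitted 0.92 ± 0.14 (adjusted p = 0.0022). All arrays of the 3 genes were above 0, and Mdk was lowest on array 3.

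Of 15 growth arrest genes and FOXO targets, 4 rose and 0 fell, while the list median was 0.03. Sat1, which catabolises polyamines, rose by 1.26 ± 0.27, and Pink1, the kinase of mitochondrial quality control, rose by 1.13 ± 0.27. Both lost their calls without array 1, 2 or 4, where the adjusted p reached 0.194 and 0.237. Gadd45g, a stress-inducible growth arrest gene, read 0.56, 1.44, 1.50 and 0.57, a fitted 1.02 ± 0.25, and was not called without any 1 of the arrays (adjusted p up to 0.207). Its Cy3 arrays lay above its Cy5 arrays. Pik3ip1, an inhibitor of phosphatidylinositol 3-kinase, rose by 0.72 ± 0.13 and lost its call without array 1 or 2 (adjusted p up to 0.0626). Its value averages spots at 1.13 and 0.31. The other 11 lay between -0.22 (Fbxo32) and 0.57 (Cdkn1c), none past the test.

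Other rises were of single genes. Of 20 glutathione and antioxidant genes, 3 rose, the glutathione transferases Gsta4 (0.93 ± 0.21), Gstm1 (0.86 ± 0.21) and Gstm2 (0.58 ± 0.14), and the peroxiredoxin Prdx4 fell by 0.48. All 4 lost their calls when array 1, 2 or 4 was left out, with adjusted p up to 0.166, 0.241, 0.194 and 0.121 in that order. The transferases are a family of close relatives, so their cDNA spots may cross-hybridise. Of the 16 listed matrix and mesenchymal genes, 0 rose, and Tnc, Mfap2 and Mfap4 are not on that list. The matrix protein Tnc (tenascin C) rose by 1.03 ± 0.20, with readings of 0.93, 1.42, 1.18 and 0.58, and lost its call without array 1 or 2 (adjusted p up to 0.0955). Mfge8, a secreted bridge to phosphatidylserine, rose by 0.96 and lost its call without array 1, 2 or 4 (adjusted p up to 0.189). The protocadherin Fat4 rose by 0.81 and lost its call without array 1 or 4 (adjusted p up to 0.105). Mfap2 and Mfap4, of elastic microfibrils, rose by 0.80 and 0.75. Mfap4 ranged from -0.07 on array 4 to 1.41 on array 1, its value moved by over 1.5 times to 0.45 without array 1, and its adjusted p then reached 0.442, against 0.227 at most for Mfap2.

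The last of the 20 largest rises were modest. Fam214a rose by 0.92 and Kdm5b, a histone H3 lysine demethylase, by 0.79, and their calls ended without array 1 (Fam214a, adjusted p = 0.0565) or without array 1 or 2 (Kdm5b, up to 0.0968). Nepro, Bckdha of branched-chain amino acid breakdown, the actin-binding protein Dbn1 (drebrin) and the receptor phosphatase Ptprd rose by 0.72, 0.71, 0.71 and 0.70. They lost their calls without array 1 or 2, and all but Ptprd also without array 4, with adjusted p up to 0.26, 0.237, 0.365 and 0.234. Of 28 lysosomal and vacuolar ATPase genes, 2 rose, the hydrolase Gaa (0.59) and the protease Ctsa (0.48), and 25 lay above 0, with a median of 0.24. Gaa and Ctsa lost their calls without array 1, 2 or 4 (adjusted p up to 0.237 for both).

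Metabolic and secretory genes gave scattered falls. Of 20 genes of sterol and fatty acid synthesis, 2 fell, with a list median of -0.16. Dhcr7, the last enzyme of cholesterol synthesis, read -0.57, -0.63, -0.92 and -0.55, a fitted -0.66 ± 0.11 (adjusted p = 0.00325), and stayed called whichever array was left out. Insig1, a regulator of sterol synthesis, fell by 0.59 and lost its call without array 1, 2 or 4 (adjusted p up to 0.241). Of 22 genes of endoplasmic reticulum stress and ATF4, 4 fell, with a median of -0.29. The disulfide isomerase Pdia6 fell by 0.49 ± 0.09 with all arrays below 0 and stayed called throughout, whereas P4hb (-0.38), the serine enzyme Shmt2 (-0.43) and the co-chaperone Dnajb11 (-0.32) did not (adjusted p up to 0.119, 0.124 and 0.223). The main chaperone of that compartment, Hspa5 (BiP), was at -0.14.

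Energy metabolism changed in single genes. Of 20 glycolysis and hypoxia genes, Pgk1 and Pgam1 fell, by 0.43 and 0.47 (adjusted p up to 0.164 and 0.214 with 1 array left out). Of 53 genes of oxidative phosphorylation, Sdhd fell by 0.55 and Cox6b2 by 0.81, which is 3.77% of the list against 3.44% of all named genes. Cox6b2 read -2.51 on array 1 and 0.20, -0.27 and -0.67 on arrays 2 to 4, and without array 1 its value was -0.39 (adjusted p = 0.303). Sdhd lost its call without array 1 or 3 (adjusted p up to 0.162).

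The machinery of protein synthesis and breakdown gave no call in limma. None of 25 cytosolic ribosomal proteins, 46 mitochondrial ribosomal proteins, 43 translation factors, 23 ribosome biogenesis genes, 17 splicing factors or 35 proteasome genes passed the test, and their medians lay between -0.11 and 0.02. At an unadjusted p under 0.05, 33 of these 189 genes differed, against 1656 of all 12559 units. Of 37 nuclear transport genes 5 fell, the importin Kpna2 (-0.91), Rangap1 (-0.83), the exportin Xpo1 (-0.65), Nup93 (-0.47) and Cse1l (-0.47). Each lost its call without array 1 or 2 (adjusted p up to 0.103, 0.0868, 0.223, 0.279 and 0.0601). Of 41 histone and chromatin genes 4 fell, Hmgb2, Anp32e (-0.65), Hmgn5 (-0.54) and Anp32b (-0.51), of which Anp32e stayed called throughout and Hmgn5 and Anp32b did not (adjusted p up to 0.157 and 0.18). Ezh2, the Polycomb methyltransferase, was at -0.10. Of 18 chaperones Hspe1 fell by 0.38, and of 6 p53 and cell death genes Ccng1 fell by 0.47, with adjusted p up to 0.152 and 0.0967 when 1 array was left out. Of 18 actin genes 0 were called, and the median was -0.13. At an unadjusted p under 0.05, 7 of the 18 differed, against 1656 of all 12559 units.

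The cell type lists held few calls at 12 h. Of 12 neural stem and progenitor genes, Tnc and Mdk rose and Id1, an inhibitor of differentiation induced by BMP, fell. Id1 read -1.21, -1.04, -1.03 and -0.41, a fitted -0.92 ± 0.18 (adjusted p = 0.00781), and lost its call without array 1 or 2 (adjusted p up to 0.102). It was also the only call among 18 genes of BMP, TGF-beta, Notch, Wnt and Hedgehog signalling. The progenitor filaments Nes (nestin) and Vim were both at -0.40, with an adjusted p of 0.0982 for Nes, whose arrays ranged from -1.16 to 0.31.

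Of 9 neuronal genes, Uchl1 rose by 0.50 (adjusted p up to 0.101 without array 1 or 2), the list median was 0.16, and Tubb3, the neuronal tubulin, was at 0.16. Of 3 oligodendrocyte lineage genes and 11 astrocyte genes, the single call was Acsbg1, an acyl-CoA synthetase, which read -1.42, -0.90, -0.84 and -0.43, a fitted -0.90 ± 0.15 (adjusted p = 0.00361, and 0.0559 without array 1). Markers of microglia (5 genes), endothelium (4) and erythroid cells (3) lay between -0.21 (C1qc) and 0.18 (C1qa), none called in limma and 0 of the 12 at an unadjusted p under 0.05. Of 16 matrix and mesenchymal genes, the basement membrane protein Nid1 fell by 0.51 (adjusted p up to 0.133 without array 1 or 2). Cell numbers were not measured, so a change in the share of a cell type was not tested.

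Cells kept without growth factor for 12 h, with the same reference on their arrays, provided the background of withdrawal at the same time. There, 1468 units (11.7%) differed from FGF-2, against the 3.01% with PDGF-AA. Of the 215 named genes that fell with PDGF-AA, 195 were also called lower without factor, where 540 of all 6241 named genes were. Both sets of ratios share the FGF-2 reference and the same fit, so their calls are not independent. The direct contrast of PDGF-AA against no factor at 12 h called 2 units (0.0159%), both higher with PDGF-AA, and 681 at an unadjusted p under 0.05. They were Mcm6 and an unnamed probe, H3021F12_1. Mcm6 read -0.43, -0.85, -0.40 and -0.26 with PDGF-AA and -2.96, -2.35, -2.61 and -2.46 without factor, so the groups lay far apart. The difference was 2.11 ± 0.32 (95% interval 1.43 to 2.78, adjusted p = 0.0329). The probe was at -0.50 with PDGF-AA and -1.82 without factor, a difference of 1.31. Mcm6 lost its call without any 1 of the PDGF-AA arrays and without array 1, 2 or 3 of no factor (adjusted p up to 0.241), while its difference stayed between 1.97 and 2.26.

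**Figure D4:**
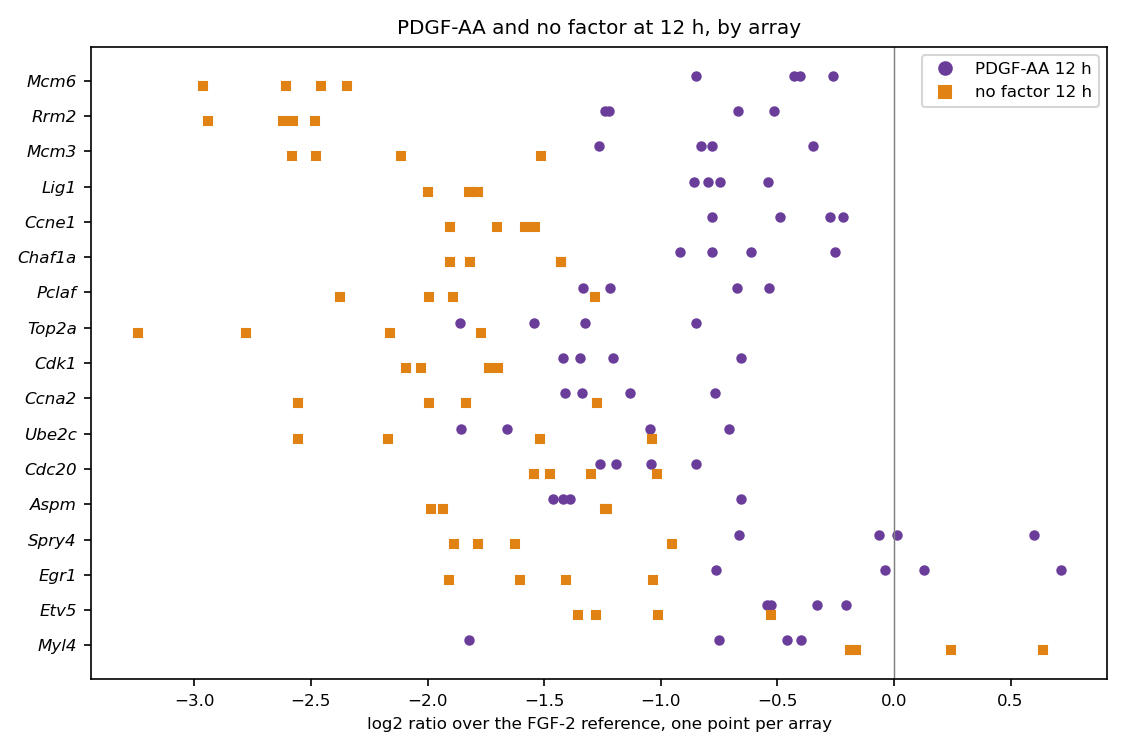
Log2 ratio over the FGF-2 reference on each array with PDGF-AA for 12 h (circles) and without factor for 12 h (squares), for genes of replication, mitosis and growth factor signalling. The groups are separate for Mcm6, Rrm2, Mcm3, Lig1, Ccne1, Chaf1a, Cdk1, Spry4, Egr1 and Myl4. They overlap for Pclaf, Top2a, Ccna2, Ube2c, Cdc20, Aspm and Etv5. The share of all units without overlap was not counted.

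Other replication genes had large differences that did not pass the adjusted test in the fit of all arrays. Rrm2 read -1.24, -1.22, -0.67 and -0.52 with PDGF-AA and -2.94, -2.62, -2.48 and -2.58 without factor, a difference of 1.74 ± 0.31 (adjusted p = 0.0803). Lig1, the ligase of Okazaki fragments, differed by 1.12 ± 0.20 and Ccne1 by 1.24 ± 0.22, both with an adjusted p of 0.0803. The readings of these 3 genes did not overlap between the groups. They were chosen by their small p in this contrast, and the share of all units without overlap was not counted. Mcm3 differed by 1.37, Chaf1a, a subunit of the replication-coupled histone chaperone, by 1.00 and Pclaf by 0.95, all with an adjusted p of 0.218. A fit of the 8 arrays of 12 h alone called 25 units, 23 higher and 2 lower with PDGF-AA. That fit called 21 of the 6241 named genes. Of these, 10 were among the 20 origin and 31 fork genes measured: Mcm6, Rrm2, Lig1, Mcm2, Chaf1a, Gmnn, Mcm3, Pole, Dctpp1 and Pclaf. Also called higher were Ccne1 (1.24) and the spindle gene Top2a (1.09), among others. The 2 lower ones were the growth arrest genes Cdkn1c (-0.93) and Gadd45g (-0.77).

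Side by side, the replication lists lay closer to the FGF-2 reference with PDGF-AA than without factor. Origin genes had medians of -0.41 and -0.85 and fork genes of -0.49 and -1.04, and the median difference was 0.47 and 0.56. G2/M genes had medians of -0.83 and -1.10 and spindle genes of -0.73 and -1.02, with median differences of 0.29 and 0.26. Of the 170 cell cycle genes, 141 lay higher with PDGF-AA, against 2913 of all 6241 named genes, and 1, Mcm6, passed the test of the difference. Top2a differed by 1.09 ± 0.26 (interval 0.55 to 1.63, adjusted p = 0.326), Cdk1 by 0.73 ± 0.24 (0.23 to 1.24) and Ube2c by 0.50 ± 0.21 (0.06 to 0.94). In the limma fit of the 12 h arrays alone Top2a was called (adjusted p = 0.0448), and Cdk1 and Ube2c were not. For Cdc20 the difference was 0.25 ± 0.24 (-0.26 to 0.76) and for Aspm 0.37 ± 0.25 (-0.17 to 0.91). Whether replication genes differed more than mitotic ones was not tested.

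Some genes downstream of ERK also lay apart without passing the adjusted test. Over the 6 listed ERK genes the median difference was 0.21, with 5 above 0. Over the 13 immediate early genes it was 0.04, with 8 above 0. The fit of all arrays called 0 on either list. Spry4 read -0.95, -1.78, -1.89 and -1.63 without factor, against values around 0 with PDGF-AA, a difference of 1.53 ± 0.48 (interval 0.52 to 2.54, adjusted p = 0.719). Egr1 read -1.03, -1.41, -1.60 and -1.91 without factor and differed by 1.50 ± 0.33 (0.80 to 2.20, adjusted p = 0.253). Neither gene's arrays overlapped between the groups, and the share of all units without overlap was not counted. Spry4, but not Egr1, was called in the fit of the 12 h arrays alone, with an adjusted p of 0.0102. Etv5 differed by 0.64 ± 0.21, with 1 array of no factor, at -0.53, inside the range with PDGF-AA.

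Of the 10 genes with the smallest p in this contrast, Myl4 was the one lower with PDGF-AA. Myl4, a myosin light chain of embryonic muscle, read -1.82, -0.40, -0.46 and -0.75 with PDGF-AA and 0.24, -0.16, -0.19 and 0.64 without factor. It fell against FGF-2 by 0.86 ± 0.14 (adjusted p = 0.00292), stayed called whichever array was left out, and differed from no factor by -0.99 (adjusted p = 0.218). Ibtk, an inhibitor of Bruton tyrosine kinase, and Tex101 had differences of 1.39 and 0.55 in favour of PDGF-AA, with the same adjusted p as Myl4. Among genes that rose against FGF-2, the values with PDGF-AA and without factor were, in that order, Serinc2 at 1.14 and 1.80, Gadd45g at 1.02 and 1.79, and Mdk at 0.92 and 1.08.

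Against the later state, 6 d of PDGF-AA, 135 units (1.07%) differed, 80 higher (0.637%) and 55 lower (0.438%) at 6 d, with 1415 at an unadjusted p under 0.05. Epb41l2, a membrane skeleton protein, read -0.20, -0.77, -0.46 and -0.63 at 12 h and 1.35, 1.80, 1.84 and 1.21 at 6 d. It had fallen at 12 h (-0.51, a call that ended without any 1 array, adjusted p up to 0.189), and the difference was 2.07 ± 0.17 (adjusted p = 1.8e-05). Sirt2, a deacetylase abundant in oligodendrocytes, read 0.11, 0.94, 0.96 and 0.00 at 12 h and 1.51, 2.32, 3.28 and 3.42 at 6 d, a difference of 2.13 ± 0.24 (adjusted p = 0.000334). Neither gene's arrays overlapped between the times. Both genes were chosen by their small p in this contrast, and the share of all units without overlap was not counted. Dbndd2, Shroom2, Sema6d, Pkp4, Pbx3 and Map7 were also higher at 6 d, by 1.76, 1.78, 1.59, 1.46, 1.43 and 1.15, and none of them was called at 12 h. Ddhd1, a phospholipase, rose by 0.57 at 12 h (adjusted p up to 0.0955 without array 1 or 2), fell by 0.44 at 6 d and differed by -1.01, and Coro2b, an actin-binding coronin, differed by -1.01. Pdgfa was at 0.41 at 12 h and 1.72 at 6 d, a difference of 1.32 ± 0.21 (adjusted p = 0.00432). Leaving out any 1 of the 8 arrays ended none of these calls of the difference.

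The fitted cell cycle median was -0.51 at 12 h and -0.17 at 6 d, but the 6 d arrays differed widely. Over the 170 genes, arrays 1 to 4 of 6 d had medians of 0.13, -0.18, -0.20 and -0.57, and those of 12 h had -0.61, -0.63, -0.48 and -0.40. Array 4 of 6 d, the one that carries the title number of all 12 h arrays, thus lay within the range of 12 h. On that array Top2a read -1.55, Bub1 -1.76, Mfge8 0.98 and Fat4 0.76, on the same side of 0 as at 12 h. Cdca2 at -0.35 and Mdk at 0.0068 lay outside their 12 h ranges on the same array. For the other 6 d arrays, title number and time cannot be told apart. At 6 d, 9 of the 170 genes were lower than FGF-2 (against 1.79% of all named genes). Of the 170, 5 passed the test of the difference between the times, all higher at 6 d, a direction in which 0.881% of all named genes were called. These were Cdca2, Cenph, Prc1, Ccnf and the polymerase subunit Pold2, named because they were so few. Cdca2 was at -1.01 at 12 h and -0.28 at 6 d (difference 0.73, adjusted p = 0.0231). Each of the 5 lost this call when certain single arrays of either time were left out, array 2 of 12 h and array 2 of 6 d among them (adjusted p up to 0.169). Of the 20 genes that fell furthest at 12 h, Tacc3, Aspm and Bub1 were lower than FGF-2 at 6 d, at -0.63, -0.77 and -0.67. Serinc2 went from 1.14 to -0.10, Mdk from 0.92 to -0.08, Mfge8 from 0.96 to -0.40 and Fat4 from 0.81 to -0.22, all past the test of the difference. These 4 lost that call without array 1 or 2 of 12 h, and some also without others (adjusted p up to 0.0685, 0.108, 0.147 and 0.149). Tnc was at 1.03 and 1.51 and rose against FGF-2 at both times. The count of 135 was 64, 65, 106 and 85 without arrays 1 to 4 of 12 h, and 141, 48, 91 and 211 without arrays 1 to 4 of 6 d. The 12 h arrays share 1 title number, while the 6 d arrays carry several, and with the arrays of the commonest number alone 11 units were called. Epb41l2 and Sirt2 stayed called there, and the other 8 genes of the 10 with the smallest p did not.

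**Figure D5:**
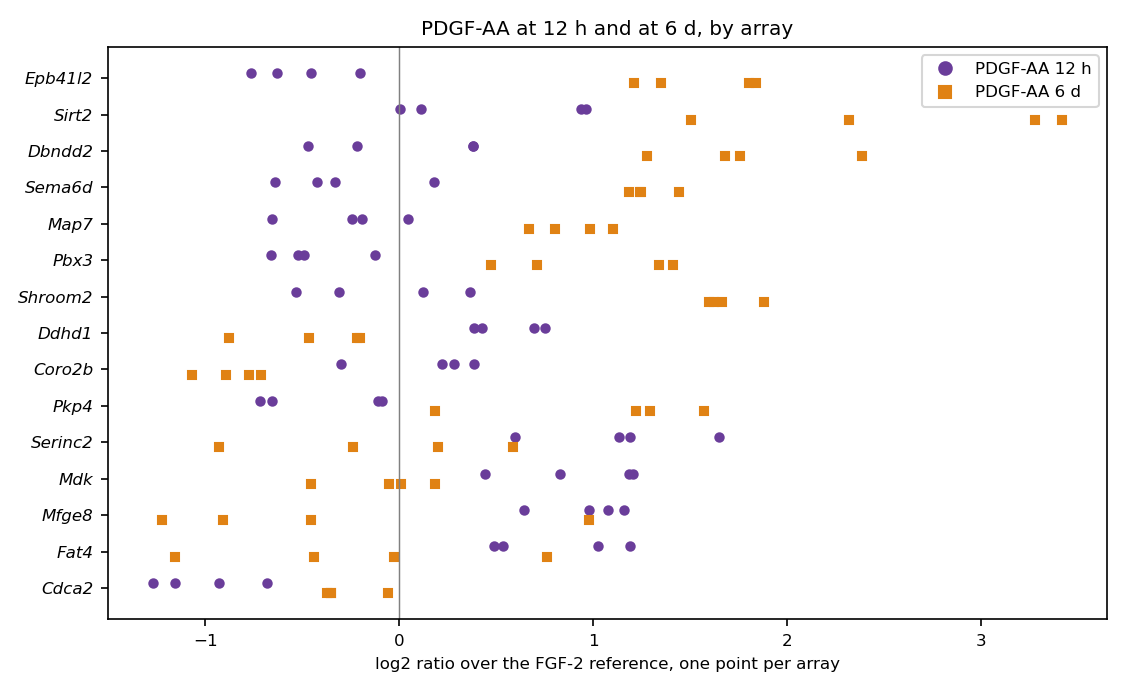
Log2 ratio over the FGF-2 reference on each array with PDGF-AA for 12 h (circles) and for 6 d (squares), for the 10 named genes with the smallest p of the difference and 5 genes that changed at 12 h and differed at 6 d. The arrays of Epb41l2 and Sirt2 do not overlap between the times, and those of Mfge8 and Fat4 overlap through 1 array of 6 d.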

How the data were processed

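Per the labels' protocols, 40 µg of total RNA was reverse transcribed with Cy3 or Cy5, hybridised to a mouse cDNA chip of about 15000 spots (dyes swapped on 2 of the 4 arrays of a group), scanned with a ScanArray 4000 and quantified with QuantArray. The authors deposited 1 log ratio per spot and array, taken here as log2. Background correction and normalisation are not given in the sources used here. All 16 columns were used (0 left out). Of 15151 spots, 8833 had 1 mouse symbol, 606 several and 5712 none. Gene symbols come from this mouse annotation, 0 of whose gene identifiers matched the rat gene table. Precision is limited by the number of arrays, and signal over background could not be assessed without intensities.

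Arrays were centred on their medians, spots of 1 symbol averaged, and units with values on at least 3 arrays of each group fitted with limma 3.58.1 in R 4.3.3: 4 group coefficients, a dye term, empirical Bayes moderation and two-sided tests with Benjamini-Hochberg adjustment at 0.05. The procedure was tested on simulated data. Named are the 20 genes that fell and the 20 that rose most (past the threshold, with the means of both dyes on the fitted side), members of the gene lists, the 10 genes with the smallest p in each other contrast, and unnamed probes among the 5 smallest p. Genes and lists were chosen with earlier results of these data known, so lists are described by counts and medians, with no test. Alternatives left out the dye term, centring, averaging, moderation settings, other groups or single arrays.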

Additional observations from a re-analysis of the deposited data

Results flagged for a closer look

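In 4 arrays, a value was looked at again where its gap to the nearest other array was above Dixon's critical value as a share of the whole range, which chance does in about 1 of 20 groups. This was checked for 50 genes and 37 list medians. Aspm on array 3 (-0.66) and Nusap1 on array 3 (-0.49) stood above the other 3 arrays. Among list medians, growth arrest and FOXO targets on array 3 (-0.0898), cytosolic and mitochondrial chaperones on array 1 (-0.13) and splicing factors on array 4 (-0.14) were each the lowest of the 4 arrays.

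Among the genes named by rule, those whose change from the FGF-2 reference differed between 6 d and 12 h of PDGF-AA, by the limma contrast at an adjusted p under 0.05, are given here as 6 d minus 12 h. Higher at 6 d were Sirt2 (2.13), Epb41l2 (2.07), Shroom2 (1.78), Dbndd2 (1.76), Sema6d (1.59), Pkp4 (1.46), Pbx3 (1.43), Map7 (1.15), Myl4 (1.04) and Cdca2 (0.73). Lower at 6 d were Mfge8 (-1.37), Serinc2 (-1.24), Fat4 (-1.02), Coro2b (-1.01), Ddhd1 (-1.01) and Mdk (-0.995). Myl4 lost this call without array 2 of 6 d (adjusted p = 0.0704). Of genes on the lists, Pdgfa (1.32) and Acsbg1 (1.28) were higher at 6 d and kept the call whichever array was left out.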

How the results depend on the processing

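The 138 genes and probes called against FGF-2 and on the lists or named by rule were followed. None of them changed sign under any alternative tried, while medians of some lists near 0 did with 1 array left out. With spots not averaged, only the 85 read from a single spot were followed. Of 86 called genes with several spots, 4 had spots of both signs, namely Prc1, Tpx2, Dlgap5 and Cand2. The count against FGF-2 (378, of which 78% lower) was 156 (86.5% lower) without the dye term, where cell cycle falls were 49, and it ranged from 76 to 288 with 1 array left out, where cell cycle falls ranged from 36 to 73. Of these 138 (against 215 named genes that fell and 70 that rose), 70 kept their call without the dye term and 68 did not. PDGF-AA against no factor (2) gave 0 without the dye term, 0 with arrays scaled to a common spread, 25 with the 12 h arrays alone, 18 with arrays of the commonest title number, and 0 to 2 with 1 array left out. The count of 6 d against 12 h (135) was 38 without the dye term, 21 with the PDGF-AA arrays alone, 11 with the commonest title number, and 48 to 211 with 1 array left out. The cause of these differences was not tested. No paired analysis was possible because the replicate numbers follow the order of deposition and only name an array. With 4 arrays and a median SE of 0.121, small changes were not detectable.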

Other observations

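Some gene families, chosen after their values were seen and given without a test of the family, held genes past the threshold against FGF-2. Of 9 measured centromere proteins (Cenp), 6 fell (Cenpa, Cenph, Cenpo, Cenpq, Cenps and Cenpu), all 9 lay below 0 and the median was -0.53. Cenpa, Cenph and Cenpn are also on the spindle list and were counted there. Of 5 subunits of augmin (Haus), which nucleates microtubules within the spindle, Haus4, Haus5 and Haus6 fell and the median was -0.67. Of 9 genes of purine synthesis and salvage, Adk, Paics, Pfas and Pnp fell and all 9 lay below 0. Pnp, the nucleoside phosphorylase, read -0.58, -1.14, -1.23 and -0.46 on arrays 1 to 4, a fitted -0.85 ± 0.13, and stayed called whichever array was left out.

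Of 22 genes of translocation and glycosylation in the endoplasmic reticulum, Rpn1, Rpn2, Ssr1 and Stt3b fell, and Rpn2, at -0.66 ± 0.10, stayed called whichever array was left out. Ogt and Oga, the enzymes that add and remove O-linked N-acetylglucosamine, rose together by 0.42 and 0.39, with calls that ended when array 1, 2 or 4 was left out (adjusted p up to 0.183 and 0.253). Of 13 lysine demethylases (Kdm), Kdm5b and Kdm6b rose and 12 lay above 0, with a median of 0.17. Igfbp3, a binding protein of insulin-like growth factors, read -0.34, -0.95, -0.85 and -1.67, a fitted -0.95 ± 0.20, and lost its call without array 2 or 4 (adjusted p up to 0.107). Unnamed probes H3019H12_1 (-1.35), H3105B10_1 (-1.29) and H3038A08_1 (-1.13) changed as much as the named genes at the head of the list, and their genes were not looked up here.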
